A study of Mus musculus with 18 samples.

Results

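Lysosomal enzyme and membrane genes were followed in cells plated from mouse neurospheres and treated with trichostatin A (TSA) or BMP2. The 39 genes were taken from a fixed list of cathepsins and legumain, glycosidases, a sulfatase and lipid hydrolases, their activators and the cholesterol transfer proteins, proteins of the lysosomal membrane, and the transcription factors Tfeb and Tfe3. All probe sets that the array annotation pairs with 1 of these symbols were used, and the brightest probe set stands for the gene. Of the 39 genes, 38 had such a probe set, 80 in all, among 18194 genes with a probe set of 1 symbol on the array. Cd63 had none and was not analysed here. A mean signal of at least 100 in the highest group was required for the test, which left 35 of the 39 genes among 10576 genes tested. Ctss, Cd68 and Tfeb lay under this filter.

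The cells came from neurosphere cultures of the lateral and medial ganglionic eminences of C57BL/6 J mouse embryos at E15.5. According to the paper, the spheres were dissociated and the cells grown as a differentiating monolayer before TSA or BMP2 was added. TSA, which inhibits histone deacetylases, was given at 50 nM, and BMP2, a growth factor that signals through BMP receptors, at 10 ng/ml. Control cultures received neither, and RNA was taken at 24 h or 6 h. Mouse Genome 430 2.0 arrays were run on 4 TSA, 2 BMP2 and 6 control samples at 24 h, and on 2 TSA, 2 BMP2 and 2 control samples at 6 h. The labels do not say whether arrays of a group came from separate cultures or embryos, so that p-values measure the spread between these arrays, which may be technical.

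Lysosomes degrade material that reaches them by endocytosis, phagocytosis and autophagy. Their hydrolases are made in the endoplasmic reticulum, mostly tagged with mannose 6-phosphate in the Golgi, and work at the acid pH that a proton pump maintains. TFEB and TFE3, basic helix-loop-helix factors of the MiT family, bind an E-box in the promoters of many of these genes, and loss of single enzymes causes lysosomal storage diseases that often affect the brain.

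Signals of 2 arrays of a group correlated at 0.963 to 0.994 on the log2 scale, and the number of arrays limits the precision. The arrays at 24 h were not alike. Xist was at 1220 and 703 in the BMP2 arrays and at 2090 and 1550 in control arrays 5 and 6, while the other 14 arrays had 18.4 to 75.5. Both BMP2 arrays of 24 h therefore lay on the same side of this split as 2 of the 6 controls, and all 4 TSA arrays on the side of the other 4 controls. In 2 further fits, a term was added for the arrays with a high Xist signal, or only the controls on the same side of the split were used, and it is stated where a gene named below lost its call at 24 h in them. The defining markers of neural stem cells were present, with 6 of 6 at a mean of 100 or more in every group. Microglia and macrophages, which are rich in lysosomal enzymes, were near background: the summed signal of their 16 markers was 226 to 297 in TSA, 230 to 259 in BMP2 and 190 to 274 in control arrays at 24 h, and at most 1 of 16 reached a mean of 100 in any group. Of these markers, Fcgr3 was at 12.2, 12.7, 70.5 and 50.2 in TSA arrays of 24 h, above the 1.4 to 4.37 of the controls. Laptm5 was at 57.7 to 67.7 there, below the 69.7 to 121 of the controls. In the same arrays the 10 oligodendrocyte lineage markers on the array summed to 6670 to 19800 in TSA, 6620 to 7780 in BMP2 and 27600 to 42000 in control cultures, with 9 of 10 lower after TSA and 8 of 10 lower after BMP2 and none higher, and their part in the results at 24 h was not tested. The 8 astrocyte markers summed to 22500 to 31100 in TSA, 16300 to 19200 in BMP2 and 21800 to 31700 in control cultures, with 3 of 8 called lower after TSA, 5 of 8 called lower after BMP2 and none called higher. Among them Gfap, although not called, was at 4370, 4140, 4100 and 3260 in TSA cultures, above the 102 to 2970 of the controls. The 8 neuron markers summed to 3490 to 4120 in TSA, 5770 to 6850 in BMP2 and 4740 to 6980 in control cultures, with 2 higher and 3 lower after TSA and 2 higher and 0 lower after BMP2, and the part of either list was not tested.

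After 24 h of TSA, most of the lysosomal genes that could be tested were higher than in the controls. Of 35 genes, 21 rose and 0 fell, at a Benjamini-Hochberg adjusted p under 0.05 in a limma fit of all groups, whereas 18.6% of all tested genes rose and 20.1% fell. Ctsh and Gla, both among the 21, reached the filter in TSA groups alone and so had to differ, which leaves 19 of 33 genes. The median log2 difference of the members was 0.43 against -0.02 for all genes. These differences are on the log2(signal + 32) scale, which understates the change of dim genes. In bulk RNA, a different share of cells of some type and a different amount of RNA per cell cannot be told apart. By role, 8 of 10 cathepsins and related proteases rose, as did 7 of 14 glycosidases, sulfatase and lipid hydrolases, 2 of 5 activators and cholesterol transfer proteins, 3 of 5 membrane proteins, and Tfe3.

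The proteases carried the largest changes. Ctsz, which encodes the carboxypeptidase cathepsin Z (GRCm38.p6, chr2:174427494-174439039), had signals of 1860, 849, 1840 and 2140 in TSA cultures and 621 and 523 in BMP2 cultures, against 255 to 491 with a median of 434 in the 6 controls. All TSA arrays lay above all controls, by 1.91 ± 0.23 on the log2 scale (SE), a 3.76-fold difference (adjusted p = 1.53e-05, limma). Its 2 other tested probe sets differed by 1.92 and 1.86. Ctsh, the aminopeptidase cathepsin H (chr9:90054267-90076095), was dim: 277, 98.4, 81.2 and 276 in TSA and 64.2 and 73.7 in BMP2 cultures, against 13.7 to 36.7 with a median of 28.5 in controls. It averaged 183 ± 108 in TSA cultures of 24 h (SD, n = 4) and at most 68.9 in any other group, so that it entered the test only through the group in which it was high. The TSA arrays fell into 2 bright and 2 dimmer ones, and even the dimmest was above every control (1.73 ± 0.25, adjusted p = 9.59e-05). Ctso, cathepsin O (chr3:81932601-81956725), was at 2160, 2670, 1720 and 1880 in TSA cultures against 677 to 1570 with a median of 1050 in controls, a difference of 0.97 ± 0.21. The groups did not overlap, although the controls themselves spread more than 2-fold.

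**Figure D1:**
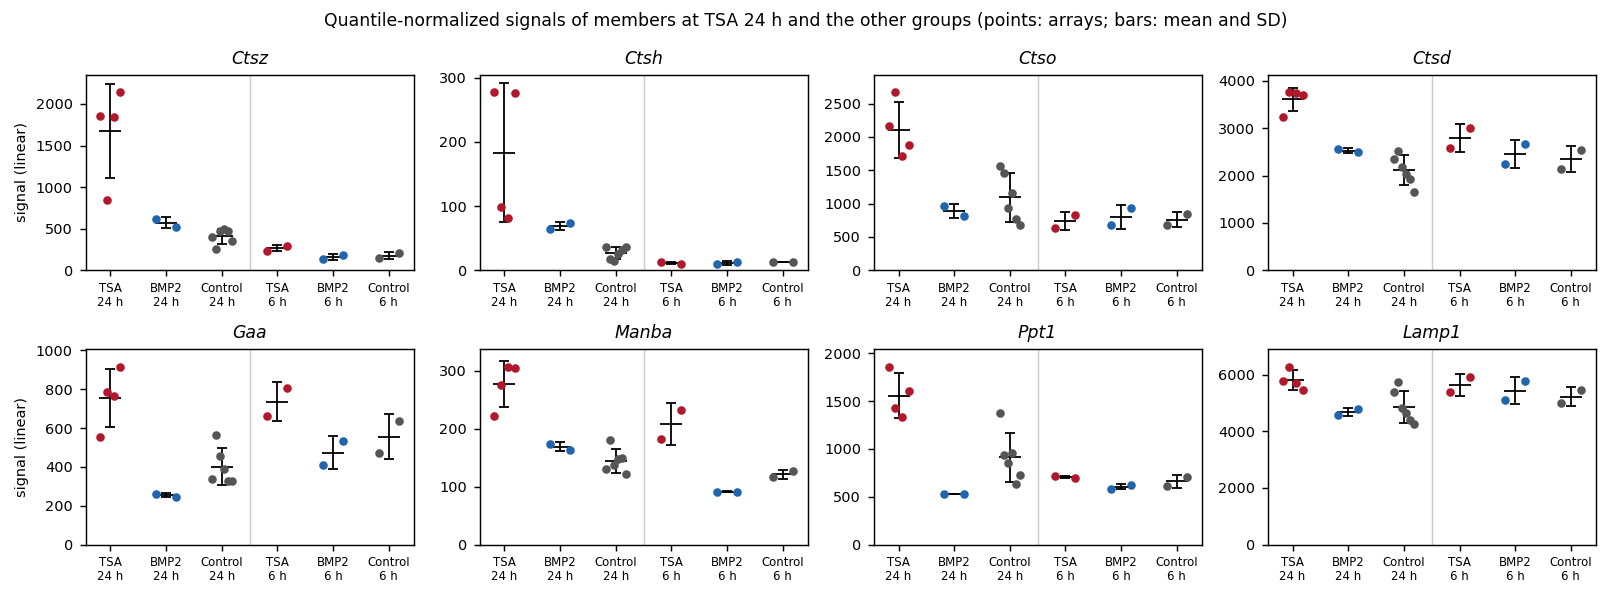
Quantile-normalized linear signals (y axis) of 8 lysosomal genes on each array (points), by treatment and time (x axis), with the mean and SD of each group. At 24 h every TSA point of Ctsz, Ctsh, Ctso, Ctsd and Manba lies above every control point, while the TSA and control points of Lamp1, Ppt1 and Gaa overlap.

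Ctsd, the aspartic protease cathepsin D (chr7:142375910-142387827), changed less and more evenly: 3240, 3760, 3740 and 3700 in TSA cultures, against 1650 to 2530 with a median of 2110 in controls. The difference of 0.77 ± 0.11 (1.71-fold, adjusted p = 4.97e-05) had an adjusted p of at most 0.000317 without any single array. The cysteine proteases Ctsf, Ctsb and Ctsl rose by 0.58, 0.46 and 0.43, and the tripeptidyl peptidase Tpp1, whose loss causes a childhood neuronal ceroid lipofuscinosis, by 0.52. For Ctsl the adjusted p was 0.0514 without TSA array 2, and the call was also lost without TSA array 3. Lgmn, an asparaginyl endopeptidase that processes cathepsins (0.47 ± 0.22, adjusted p = 0.114), and Ctsa, a carboxypeptidase that protects other enzymes (0.08 ± 0.13), did not pass. Ctss, the cathepsin typical of microglia, was at 1.02 to 10.3 on all arrays.

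Among the glycosidases and lipid hydrolases, Gaa, the acid alpha-glucosidase that breaks down glycogen, was at 555, 784, 765 and 916 in TSA cultures and 260 and 246 in BMP2 cultures, against 328 to 566 with a median of 363 in controls. One TSA array lay just under the highest control, and the difference was 0.87 ± 0.17 (1.83-fold, adjusted p = 0.00083). Manba, a beta-mannosidase of glycoprotein breakdown, was at 221, 275, 307 and 304 in TSA cultures against 122 to 181 with a median of 142 in controls (0.81 ± 0.11, adjusted p = 7.02e-05), with no overlap. Ppt1, a palmitoyl-protein thioesterase whose loss causes infantile neuronal ceroid lipofuscinosis, was at 1860, 1430, 1330 and 1610 in TSA cultures against 628 to 1370 with a median of 892 in controls (0.79 ± 0.16, adjusted p = 0.00146). Hexa, the alpha subunit of beta-hexosaminidase, rose by 0.64, the beta-galactosidase Glb1 by 0.54, the acid ceramidase Asah1 by 0.45 and the alpha-galactosidase Gla, which reached the filter in TSA cultures alone, by 0.48. The remaining 7 of 14 had differences between -0.10 for Neu1, a sialidase, and 0.23 for Lipa, the acid lipase of cholesteryl esters, and none passed.

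Grn, which encodes progranulin, the precursor of the granulins, was at 2520, 3050, 2940 and 2610 in TSA cultures, against 1280 to 2060 with a median of 1640 in controls. The difference of 0.74 ± 0.13 had an adjusted p of 0.00033. Psap, whose product is cut into the saposins that present sphingolipids to their hydrolases, rose by 0.43. With the Xist term the difference of Psap was 0.26, and against the controls with a low Xist signal 0.26 as well, and it passed in both (adjusted p = 0.0214 and 0.0298). The cholesterol transfer proteins Npc1 and Npc2 differed by -0.01 ± 0.13 and 0.05 ± 0.05.

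On the membrane side the changes were smaller. Lamp1, the abundant membrane glycoprotein, was at 5760, 6280, 5690 and 5440 in TSA cultures, against 4260 to 5720 with a median of 4720 in controls. This was 0.26 ± 0.08 (1.19-fold, adjusted p = 0.0187), and the TSA and control arrays overlapped. Its adjusted p was 0.0611 without TSA array 2. Lamp2, a receptor of chaperone-mediated autophagy in 1 of its isoforms, rose by 0.50 and Laptm4a, a transmembrane protein of late endosomes and lysosomes, by 0.37. Scarb2, the receptor that carries beta-glucocerebrosidase to lysosomes, differed by 0.10 ± 0.14. Mcoln1, the cation channel that releases lysosomal calcium, had 312, 390, 331 and 372 in TSA cultures against 329 to 586 with a median of 387 in controls, with a difference of -0.23 ± 0.14 (adjusted p = 0.21).

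The factor Tfe3 was at 434, 348, 326 and 394 in TSA cultures and 346 and 317 in BMP2 cultures, against 267 to 330 with a median of 287 in controls. It rose by 0.31 ± 0.09 (adjusted p = 0.0161), with 1 TSA array under the highest control, and had an adjusted p of 0.0598 without TSA array 1. Tfeb stayed under the filter and was not tested. Its signals were 70.6, 82.2, 54.1 and 41.4 in TSA cultures and 86.6 and 84.6 in BMP2 cultures, against 74.4 to 116 with a median of 89.9 in controls. The TSA and control signals of Tfeb overlapped, with 3 of 4 TSA arrays below the lowest control.

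**Figure D2:**
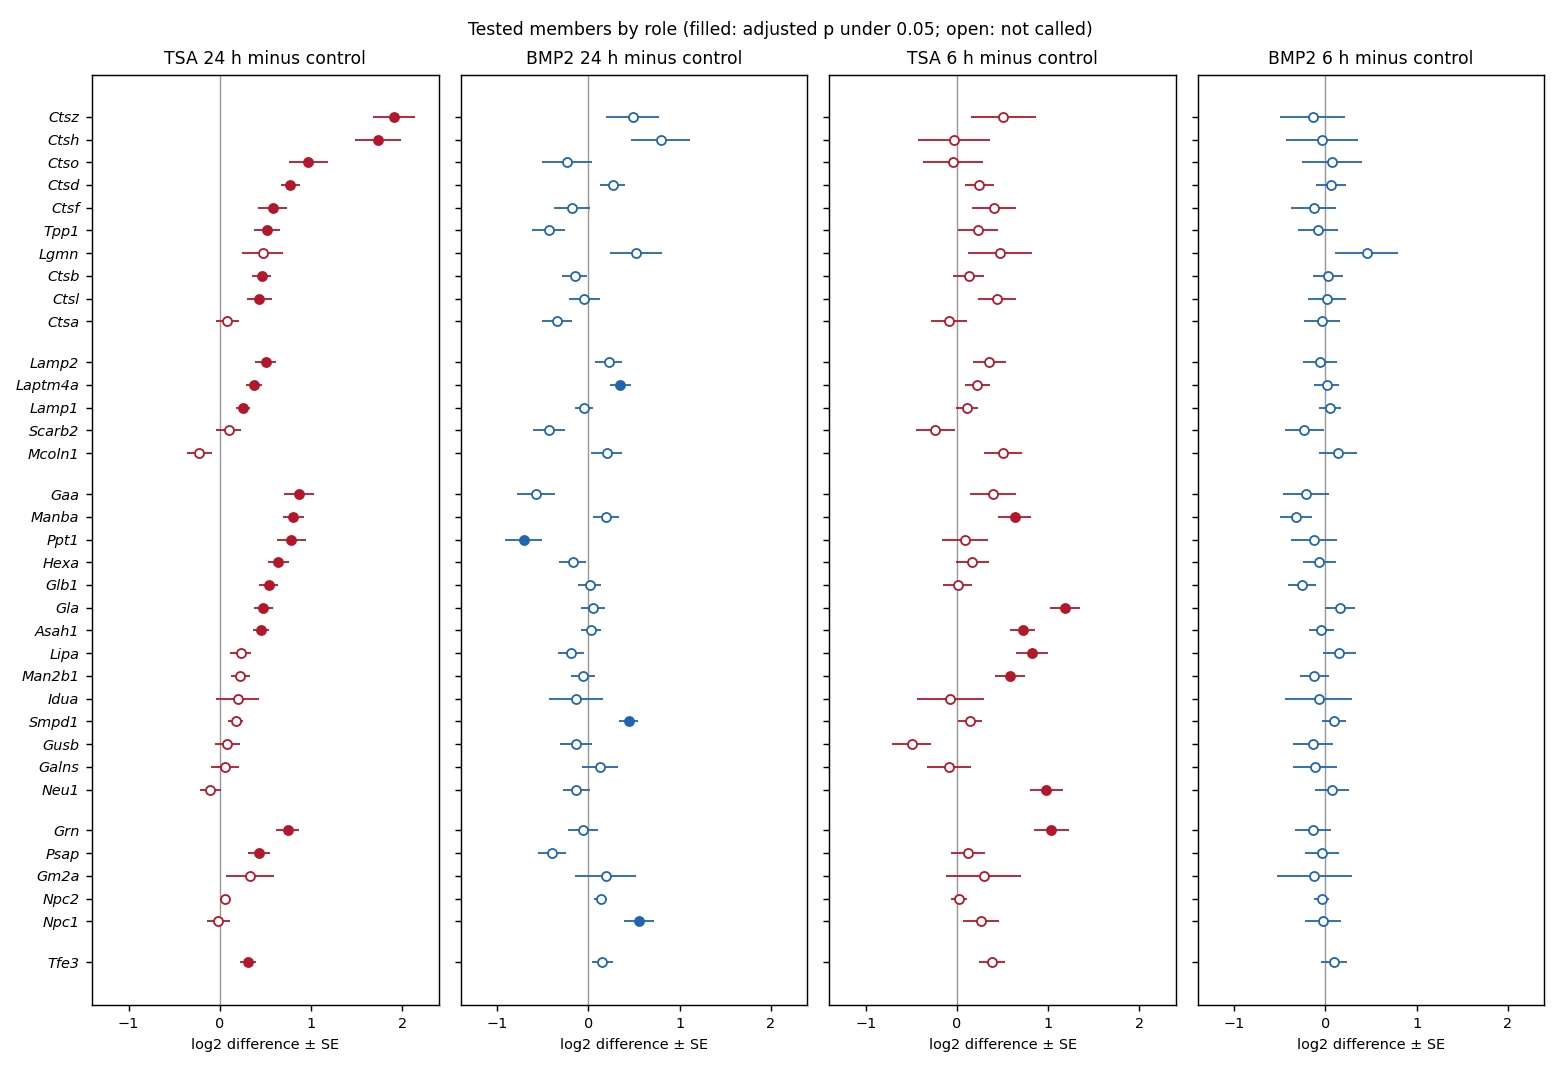
Log2 differences from the controls of the same time (x axis, ± SE) for the 35 tested genes, grouped by role from top to bottom (proteases, membrane proteins, glycosidases and lipid hydrolases, activators and cholesterol transfer, Tfe3). Filled points passed the adjusted p. At TSA 24 h 21 points are filled and all lie to the right of 0, at BMP2 24 h 4, at TSA 6 h 7 and at BMP2 6 h 0.

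With the 4 controls on the same side of the Xist split as the TSA arrays, 19 genes rose at TSA 24 h and 0 fell. Of all genes, 14.8% were higher in this setting. Lamp1 (0.17) and Tpp1 (0.37) were lost. With the Xist term 20 rose and 0 fell, against 19% of all genes higher. Lamp1 (0.18) and Ctsl (0.30) were lost there and Man2b1 (0.30) was gained. Scaling each array to 1 median in place of quantile normalization moved the median of all genes to -0.12, with 33% of the called genes higher instead of 48%. It left 14 of the 21 members higher and 0 lower, against 13.6% of all genes higher. The 7 lost were Ctsb, Ctsl, Tpp1, Psap, Lamp1, Laptm4a and Tfe3. Relative to the median of all genes, the members' median was 0.42 under this scaling and 0.46 in the quantile-normalized values.

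The promoters of these genes were read for the palindromic E-box CACGTG, the core of the element that MiT factors bind, and for its extended form TCACGTGA, which contains CACGTG. RefSeq windows of GRCm38.p6, from 250 bases before to 50 bases after an annotated start, were found for 34 of the 39 genes. They numbered 40, since a gene can have more than 1 annotated start. CACGTG, which reads alike on both strands, lay in a window of 10 of these 34 genes (29.4%), against 8.09% of all 27025 genes with a window. TCACGTGA lay in 4 of 34 (11.8%), against 1.12% of all. Such matches are a description of the letters and not binding sites. The windows below show the matches in capitals, 5′ to 3′ on the gene's strand, upstream of the start that the window belongs to. For Ctsa this start lies inside the gene, which begins at chr2:164832872. Ctsd, Gaa, Gla and Lamp1 rose at TSA 24 h, and Ctsa and Mcoln1 did not pass.
Ctsd, chr7:142387906-142387955, minus strand: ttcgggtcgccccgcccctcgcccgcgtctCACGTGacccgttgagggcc
Gaa, chr11:119267793-119267842, plus strand: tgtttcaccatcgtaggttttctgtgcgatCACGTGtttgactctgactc
Gla, chrX:134601180-134601229, minus strand: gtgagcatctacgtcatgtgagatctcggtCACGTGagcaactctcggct
Lamp1, chr8:13159111-13159160, plus strand: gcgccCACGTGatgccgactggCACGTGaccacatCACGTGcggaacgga
Ctsa, chr2:164833723-164833772, plus strand: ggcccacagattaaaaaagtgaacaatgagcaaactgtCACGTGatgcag
Mcoln1, chr8:3500444-3500493, plus strand: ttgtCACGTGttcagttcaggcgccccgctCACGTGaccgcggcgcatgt

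Lamp1 held 3 matches within the 50 bases before its start, more than any other window shown, and changed least of the 4 genes that rose. The other 4 genes with the motif in a window were Ctsf, Ctsl, Glb1 and Lgmn. For Ctsl and Lgmn, as for Ctsa, the window with the motif belongs to a start inside the gene. At TSA 24 h, 7 of the 10 tested genes with the motif rose, with a median difference of 0.47, and 11 of the 20 without it, with a median of 0.35. At TSA 6 h the corresponding counts were 1 of 10, this 1 being Gla, with a median of 0.40, and 5 of 20, with a median of 0.23. The genes with the largest differences, Ctsz and Ctso, had no CACGTG in their windows, and Ctsh had no window.

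At 6 h of TSA fewer members were called. Of 35 genes, 7 rose and 0 fell, against 14.4% and 11.8% of all tested genes. Without Gla and Ctsh, which reached the filter in TSA groups alone, 6 of 33 rose, a share near that of all genes. The median difference was 0.25 for the members and 0.02 for all genes. Among the 7, 6 were glycosidases and lipid hydrolases, the seventh was Grn, and 0 of 10 proteases, 0 of 5 membrane proteins and not Tfe3 passed. At that time the microglia markers summed to 200 to 212 in TSA cultures against 215 to 221 in controls. The oligodendrocyte lineage markers summed to 19600 to 23500 in TSA and 26300 to 31900 in BMP2 cultures, against 34100 to 38400 in controls, with 3 of 10 lower after TSA. The astrocyte markers summed to 15900 to 18600 in TSA and 18800 to 23000 in BMP2 cultures, against 22400 to 25300 in controls, with 3 of 8 lower after TSA. The neuron markers summed to 3750 to 4750 in TSA and 5250 to 6190 in BMP2 cultures, against 6520 to 7970 in controls, with 3 of 8 lower after TSA. None of these markers was called higher, and their part was not tested.

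Gla, the alpha-galactosidase that is deficient in Fabry disease (chrX:134588169-134601005), had 183 and 216 in TSA cultures and 76.1 and 86.9 in BMP2 cultures, against 63.9 and 75.4 in controls. The TSA arrays were above all others of that time (1.19 ± 0.16, adjusted p = 0.000165). Its mean was 199 at 6 h and 133 at 24 h in TSA cultures and at most 91.1 in BMP2 and control groups, so that it entered the test only through the groups in which it was high. Grn (chr11:102430507-102436809) had 2480 and 2890 in TSA cultures and 1040 and 1320 in BMP2 cultures, against 1180 and 1410 in controls (1.04 ± 0.20, 2.05-fold, adjusted p = 0.00163), with the BMP2 and control arrays interleaved. Neu1, the sialidase deficient in sialidosis (chr17:34931253-34937297), had 354 and 424 in TSA cultures and 181 and 202 in BMP2 cultures, against 164 and 199 in controls (0.98 ± 0.18, 1.97-fold, adjusted p = 0.00143).

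Lipa was at 329 and 341 in TSA cultures, against 171 and 180 in controls (0.82 ± 0.18, adjusted p = 0.00396). Asah1 was at 2570 and 2550 in TSA cultures, against 1610 and 1470 in controls (0.72 ± 0.14, adjusted p = 0.00174). In both genes each TSA array stood clear of each control. Manba and Man2b1, mannosidases of glycoprotein breakdown, rose by 0.63 and 0.58. The 2 mannosidases were the weakest of the 7 calls: without single arrays their adjusted p reached 0.192 for Manba (lost without either control array or TSA array 2) and 0.135 for Man2b1 (lost without any of the 4 arrays), whereas Gla, Grn, Neu1, Asah1 and Lipa kept an adjusted p of at most 0.041.

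Of the genes followed by sample, Ctsd had 2580 and 3000 in TSA cultures against 2150 and 2540 in controls at 6 h (0.25 ± 0.16, adjusted p = 0.313), and Lamp1 had 5370 and 5910 against 4990 and 5460 (0.11 ± 0.12). Mcoln1 had 559 and 587 in TSA cultures against 384 and 404 in controls, without overlap, and a difference of 0.51 ± 0.21 (adjusted p = 0.0969). Tfe3 had 472 and 468 against 349 and 354 (0.39 ± 0.14, adjusted p = 0.0626). Tfeb had 63.4 and 77.6 against 93.1 and 105. With 2 arrays a group, such a separation carries little. Mcoln1 and Tfe3 were not called, and Tfeb was not tested.

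**Figure D3:**
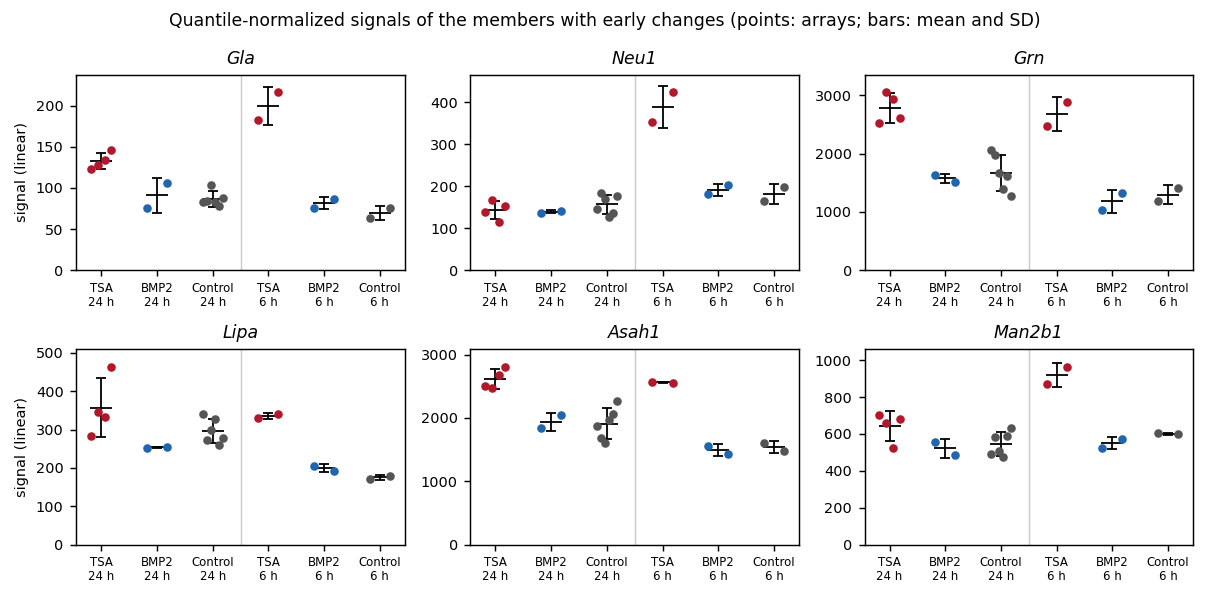
Quantile-normalized linear signals (y axis) of 6 of the 7 genes that rose at TSA 6 h, on each array (points), by treatment and time (x axis), with the mean and SD of each group. Gla and Neu1 are highest in the 2 TSA arrays of 6 h, and the TSA arrays of 24 h are lower, between 123 and 146 for Gla and between 116 and 167 for Neu1.

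The difference between the TSA effects at 24 h and 6 h was tested in the same fit. It was larger at 24 h for 2 members and smaller for 2, against 5.08% and 6.51% of all tested genes. The members' shares were thus near those of all genes. Ctsh gained 1.77 ± 0.47 (adjusted p = 0.0267) and Ctsz 1.40 ± 0.42 (adjusted p = 0.048). Of the 4, Ctsh and Gla entered the test only through TSA groups. At 6 h Ctsh had 12.4 and 10.1 in TSA cultures against 12.3 and 12.3 in controls, and Ctsz had 237 and 290 against 150 and 203, so that neither had a called difference at the early time. In the other direction, the effect on Neu1 was smaller by 1.08 ± 0.22 (-1.08, adjusted p = 0.00697) and that on Gla by 0.71 ± 0.19 (-0.71, adjusted p = 0.0281). Neu1 at 24 h had 139, 167, 116 and 154 in TSA cultures, against 127 to 184 with a median of 158 in controls. Those groups overlapped. Gla at 24 h had 123, 128, 134 and 146 in TSA cultures, against 77.5 to 104 with a median of 83.6 in controls, and was still without overlap. Each of these 4 calls was lost without at least 2 single arrays: Ctsh and Gla without either TSA or either control array of 6 h (adjusted p up to 0.115 and 0.167), Neu1 without control array 1 or TSA array 2 of 6 h (up to 0.0649), and Ctsz without 12 of the 14 arrays (up to 0.211). Grn, Asah1 and Manba were called at both times in the same direction without a called change in effect. For these the differences of the effects were -0.29 ± 0.23, -0.27 ± 0.16 and 0.18 ± 0.21.

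BMP2 moved few lysosomal genes. At 6 h, 0 of 35 were called in limma, against 1.15% higher and 0.634% lower of all tested genes, and 0 of 35 had an unadjusted p under 0.05. The differences ran from -0.32 for Manba to 0.45 for Lgmn, with a median of -0.04. Lamp1 had 5100 and 5770 in BMP2 cultures against 4990 and 5460 in controls, and Ctsd 2250 and 2660 against 2150 and 2540, and the groups overlapped in both.

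At 24 h of BMP2, 3 genes rose and 1 fell, against 9.93% and 7.72% of all tested genes, and the median difference was -0.04 for the members and 0.03 for all genes. The members' shares were thus near or under the background. Ppt1 fell: 532 and 525 in BMP2 cultures, against 628 to 1370 with a median of 892 in controls, a difference of -0.71 ± 0.20 (0.612-fold, adjusted p = 0.0262). Npc1, the membrane protein that exports cholesterol from lysosomes, had 867 and 1160 in BMP2 cultures, against 542 to 819 with a median of 680 in controls (0.56 ± 0.16, 1.47-fold, adjusted p = 0.0269). Smpd1, the acid sphingomyelinase, had 1060 and 1010 in BMP2 cultures, against 675 to 833 with a median of 762 in controls (0.44 ± 0.11, 1.36-fold, adjusted p = 0.0113). Laptm4a had 4840 and 4810 in BMP2 cultures, against 3330 to 4550 with a median of 3550 in controls (0.35 ± 0.11, adjusted p = 0.0429). By the brightest probe set, the BMP2 arrays lay beyond every control in all 4 genes. The same held for Ctsa, Ctsh, Ctsz, Gaa, Lipa and Npc2, which were not called, so that such a separation carries little. Smpd1 and Ppt1 each had a dimmer tested probe set, which did not pass in limma. These differed by 0.20 for Smpd1 (adjusted p = 0.524) and -0.41 for Ppt1 (adjusted p = 0.131), and their BMP2 and control arrays overlapped. The call of Smpd1 was also lost when the probe sets were averaged, while that of Ppt1 was kept. Npc1 and Laptm4a had 1 probe set each.

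These 4 calls depended on which arrays entered. With a term for the arrays with a high Xist signal, Smpd1 stayed (0.50, adjusted p = 0.0227), while Npc1 (0.50, adjusted p = 0.144), Ppt1 (-0.34, adjusted p = 0.357) and Laptm4a (0.12, adjusted p = 0.554) did not pass. Against control arrays 5 and 6 alone, none of the 4 passed, with 0.0686 the lowest adjusted p among them, for Smpd1. In these 2 settings other members were called instead. Lgmn had 1330 and 1280 in BMP2 cultures, against 554 and 607 in control arrays 5 and 6 and 952 to 1390 in the other 4, and rose by 1.13 with the term (adjusted p = 0.00442) and by 1.13 against arrays 5 and 6 (adjusted p = 0.00546). Ctsd had 2570 and 2490 in BMP2 cultures, against 1930 and 1650 in control arrays 5 and 6 and 2030 to 2530 in the other 4, and rose by 0.50 in both settings (adjusted p = 0.0239 and 0.0406). Npc1 was lost without BMP2 array 2 (adjusted p = 0.356), Ppt1 and Smpd1 without either BMP2 array (up to 0.171 and 0.151), and Laptm4a without either BMP2 array or any of control arrays 1 to 4 (up to 0.241). The control arrays 5 and 6 had 628 and 727 for Ppt1 and 4340 and 4550 for Laptm4a, nearer to the BMP2 arrays than the other 4 controls in both genes.

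The same split ran through some of the further probe sets at 24 h. Psap by its dimmer probe set was at 1150 and 1230 in BMP2 cultures and 1340 and 1340 in control arrays 5 and 6, against 3310 to 3710 in the other 4 controls and 4260 to 5010 in TSA cultures. By its brightest probe set it had 3510 and 3340 in BMP2 cultures, 3730 and 3420 in control arrays 5 and 6, and 4560 to 5710 in the other controls. Ctsb by 1 of its 3 dimmer tested probe sets, the one shown, had 1020 and 1610 in BMP2 cultures and 1080 and 1320 in control arrays 5 and 6, against 2390 to 3120 in the other 4. Of its other 2, one did not separate in this way, with 174 and 205 in BMP2 cultures and 148 and 177 in control arrays 5 and 6, against 117 to 239 in the other 4. The other separated by a narrow margin, with 181 and 178 in BMP2 cultures and 199 and 196 in control arrays 5 and 6, against 209 to 355. At BMP2 24 h the dimmer probe set of Psap (-1.07, adjusted p = 0.0399), that of Scarb2 (-0.74, adjusted p = 0.0367) and 1 of the 3 dimmer ones of Lamp2 (-1.02, adjusted p = 0.00889) fell, while the brightest ones had -0.40, -0.43 and 0.22 and did not pass. The other 2 of Lamp2 had -0.22 and -0.03 (adjusted p = 0.516 and 0.925). At TSA 24 h the dimmer probe set of Psap rose by 0.85 and the 3 of Ctsb by 0.94, 0.74 and 0.61, in the direction of their brightest ones.

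**Figure D4:**
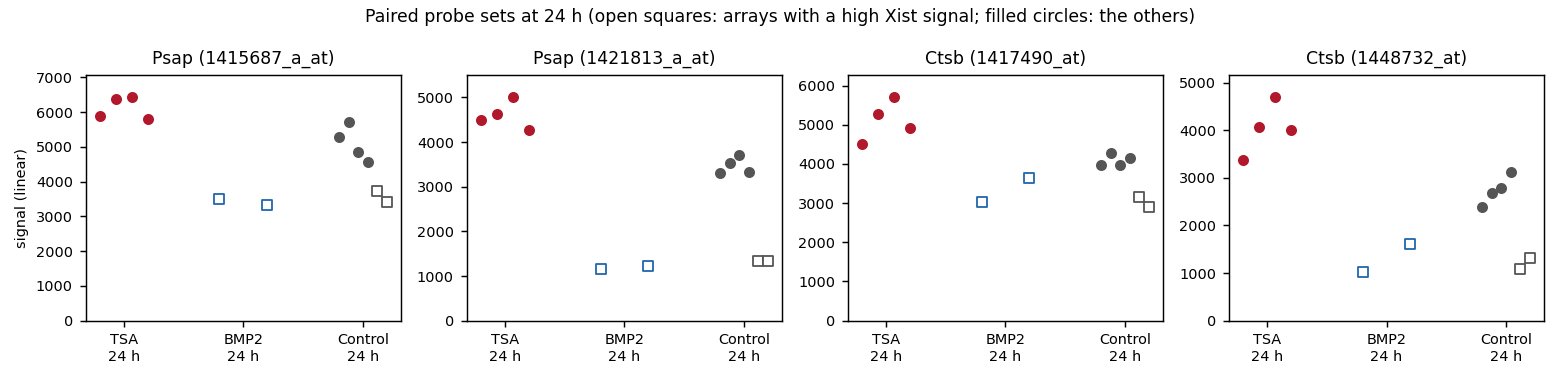
Linear signals (y axis) of a pair of probe sets each of Psap and Ctsb on the 24 h arrays, by treatment (x axis). Each point is 1 array, and open squares mark the arrays with a high Xist signal. For the dimmer probe set of each pair, the squares of BMP2 and control cultures lie between 1020 and 1610 and all other controls between 2390 and 3710.

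The effect of BMP2 did not differ between 24 h and 6 h for any member at the adjusted threshold in limma (0 of 35, with 2 at an unadjusted p under 0.05), against 0.577% of all genes with a larger and 0.189% with a smaller value at 24 h. In untreated cultures Lipa alone among the 35 genes was called with time by its brightest probe set, against 1.82% higher and 2.53% lower of all genes. It had 260 to 340 with a median of 288 at 24 h, against 171 and 180 at 6 h, a difference of 0.66 ± 0.15 (adjusted p = 0.0211) that was lost without either control array of 6 h (up to 0.335). Its 2 dimmer probe sets differed by 0.20 and -0.04 and did not pass (adjusted p = 0.554 and 0.905). The call of Lipa was also lost when the probe sets were averaged. Ctsz had 255 to 491 at 24 h, against 150 and 203 at 6 h (1.05 ± 0.29, adjusted p = 0.0511), and 1 of its dimmer probe sets passed (1.12, adjusted p = 0.0412).

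TSA and BMP2 cultures were also compared with each other. These comparisons use the same treated arrays as those above. At 24 h, 20 of 35 genes were higher and 1 was lower in TSA than in BMP2 cultures, against 17.2% and 21.2% of all genes. Ctsh and Gla, both among the 20, reached the filter in TSA groups alone and so had to differ. The largest difference was that of Ppt1, at 1860, 1430, 1330 and 1610 in TSA cultures against 532 and 525 in BMP2 cultures (1.49 ± 0.22, adjusted p = 0.000106), followed by Gaa (1.44 ± 0.22, adjusted p = 0.000182) and Ctsz (1.42 ± 0.31, adjusted p = 0.0024). Npc1 was lower, at 631, 794, 563 and 690 in TSA cultures against 867 and 1160 in BMP2 cultures (-0.57 ± 0.17, adjusted p = 0.0161). All BMP2 and no TSA arrays of 24 h had a high Xist signal. With a term for it, 8 members were called, 7 higher in TSA cultures (Ppt1, Gaa, Ctsz, Ctsf, Hexa, Asah1 and Laptm4a) and 1, Lgmn, lower. In that setting 7.21% of all genes were higher and 740 of 10576 lower. Without either BMP2 array 11 members were called. At 6 h, where all arrays had a low Xist signal, 7 genes were higher and 0 lower in TSA than in BMP2 cultures, against 15.46% and 12.5% of all genes. They were Gla, Grn, Asah1, Manba, Neu1, Man2b1 and Lipa, with differences from 0.67 for Lipa to 1.17 for Grn. Of these, Gla reached the filter in TSA groups alone and so had to differ. Lipa was lost without any of the 4 arrays and Man2b1 without BMP2 array 1 or TSA array 2.

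Other genes of the pathway were taken from lists of further hydrolases and membrane proteins, the proton pump, the sorting route, MiT factors and nutrient sensing, autophagy and the cystatins. At TSA 24 h, 6 of 16 further hydrolases rose and 2 fell. Ctsc, the dipeptidyl peptidase cathepsin C, had 2450, 1300, 1590 and 2000 in TSA cultures, against 333 to 835 in controls (1.63 ± 0.29, adjusted p = 0.000485), without overlap. Dnase2a, the acid nuclease of lysosomes, was lower at 262, 296, 152 and 189 in TSA cultures, against 384 to 729 in controls (-1.25 ± 0.18, adjusted p = 7.25e-05). At TSA 6 h it was lower as well, at 87.3 and 89.1 in TSA cultures against 337 and 362 in controls, and 0 of the 16 rose there. Signals of others in this list went both ways at TSA 6 h. Acp2 had 148 and 147 against 241 and 279 in controls, and Aga 154 and 197 against 251 and 299, while Arsa had 383 and 490 against 268 and 349.

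Of 14 further membrane proteins, 6 rose and 1 fell at TSA 24 h. Laptm4b, a relative of Laptm4a, had 3490, 3660, 3970 and 3640 in TSA cultures against 1970 to 2530 in controls (0.73 ± 0.07, adjusted p = 1.42e-06), and Cd164, a sialomucin, rose by 0.61. The 17 tested subunits and accessory proteins of the vacuolar ATPase, which acidifies lysosomes, went both ways: 2 rose and 2 fell, with Atp6ap2 at 0.44 and Atp6v1g2 at -0.35. In the sorting route, 2 of 14 rose and 1 fell. M6pr, the cation-dependent mannose 6-phosphate receptor, had 2050, 1750, 1680 and 1680 in TSA cultures against 1090 to 1380 in controls (0.60 ± 0.10), and the adaptor Gga3 fell by 0.68. Of 16 MiT and nutrient sensing genes, 1 rose and 3 fell. Rragd, a Rag GTPase that recruits mTORC1, had 786, 1430, 1190 and 914 in TSA cultures against 393 to 629 in controls (0.94 ± 0.18), and Mitf fell by 0.61. Of 22 autophagy genes, 5 rose and 2 fell, among them Wipi1 at 0.57 and the receptor Sqstm1 at 0.55. Neither tested cystatin, an inhibitor of cathepsins, passed in any comparison. Read against the 18.6% higher and 20.1% lower of all genes at that time, the hydrolases and the membrane proteins had the highest shares of risen genes among these lists. Of the genes named here, Atp6ap2 (0.30 and 0.29) and Sqstm1 (0.39 and 0.39) passed neither with the Xist term nor against the controls with a low Xist signal, and Mitf (-0.75, adjusted p = 0.0664) did not pass against those controls.

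At TSA 6 h, 7 of 22 autophagy genes rose and 0 fell, 4 of 17 proton pump genes rose and 0 fell, 3 of 14 membrane proteins rose and 2 fell, 2 of 14 sorting genes rose and 0 fell, and 2 of 16 MiT and nutrient sensing genes rose and 1 fell, against 14.4% higher and 11.8% lower of all tested genes. At BMP2 6 h, none of the genes tested in these lists was called in limma. At BMP2 24 h, Tpcn1, a channel of the endolysosomal membrane, was higher at 1350 and 1300 in BMP2 cultures, against 396 to 733 in controls (1.16 ± 0.17, adjusted p = 0.000204). Gnptab, which encodes subunits of the enzyme that makes the mannose 6-phosphate tag, was lower at 365 and 348 in BMP2 cultures, against 525 to 1100 in controls (-1.15 ± 0.24, adjusted p = 0.00419). Control arrays 5 and 6 had 527 and 525 for Gnptab, and 690 and 733 for Tpcn1, in both genes the controls nearest to the BMP2 arrays. Plbd2, Atp6v0a1, Atp6v0e and Map1lc3a rose by 0.39, 0.54, 0.51 and 0.57, and Slc38a9, Vps26a and Fnip2 fell by 0.71, 0.44 and 0.50. Tested were 16 hydrolases, 14 membrane proteins, 17 proton pump, 14 sorting, 16 MiT and nutrient sensing and 22 autophagy genes and 2 cystatins. These lists held 12 called genes at BMP2 24 h, against 9.93% higher and 7.72% lower of all tested genes. Their share was thus not above that of all genes. Most of the 12 depended on the arrays with a high Xist signal. Tpcn1 passed with the Xist term (0.87) and against control arrays 5 and 6 alone (0.86), as did Laptm4b (0.51 and 0.50), and Gnptab passed with the term (-0.52, adjusted p = 0.0106) but not against those arrays (-0.53, adjusted p = 0.0601). The other 9, among them the 7 just named, passed in neither. Atp6v0e had 3320 and 3360 in BMP2 cultures and 2710 and 3100 in control arrays 5 and 6, against 1900 to 2340 in the other controls, and its difference was 0.20 in both settings.

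By the study's own criteria, a ratio of group means over 2, a difference over 100 and a confidence of 90%, taken here as an unadjusted limma p under 0.1, fewer members were selected. They were Ctsh and Ctsz at TSA 24 h, Gla, Grn and Neu1 at TSA 6 h, and 0 of 38 at either time of BMP2, against 5.12%, 6.39%, 4.59% (BMP2 24 h) and 1.42% (BMP2 6 h) of all 18194 genes.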

How the data were processed

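The authors deposited linear intensity values per probe set for 18 arrays. MAS5 is named in the submitters' notes (no version), dChip with quantile normalization in the paper's methods. Deposited medians were 35.4 to 41.6. In R 4.3.3 the signals were quantile-normalized, 32 was added and log2 taken. Of 45101 probe sets, 19498 reached a mean of 100 in the highest of 6 groups and entered 1 limma 3.58.1 model (eBayes with trend), with Benjamini-Hochberg adjustment per comparison at 0.05. Of all probe sets, 34958 carried 1 symbol in the platform annotation, 932 several and 9211 none. Named with full values were the 5 most changed called members per comparison with controls and Tfeb, Tfe3, Mcoln1, Lamp1 and Ctsd, and, of each other list, the 2 most changed called genes at TSA 24 h and BMP2 24 h. Arrays of TSA and control at 24 h with equal numbers in the labels deviated together (4 pairs, r 0.318 to 0.584), with no call count moved beyond 1.5 times by blocking there. Steps were tested on simulated data. Members and lists were chosen with earlier results of these data known. RT-PCR, protein and staining data were not analysed here.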

Additional observations from a re-analysis of the deposited data

Results flagged for a closer look

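Among 70 sets of signals, 1 per tested gene in TSA and control cultures of 24 h, 4 held an array far from the others of its group, where chance gives about 1 in 20. Ctsd was at 3240 in TSA array 1, against 3700 to 3760 in the other TSA arrays. In controls, Galns was at 324 in array 6 (154 to 214 in the others), Gla at 104 in array 3 (77.5 to 87.1) and Gm2a at 2160 in array 6 (1090 to 1420).

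The TSA effect on 4 of 35 genes differed between 24 h and 6 h by the test of the difference itself in limma. It was larger at 24 h for 2 and smaller for 2, near the 5.08% and 6.51% of all tested genes. Ctsh and Gla entered the test only through TSA groups. Each of the 4 calls was lost without at least 2 single arrays, that of Ctsz without 12 of 14. The log2 difference of the effects was 1.77 for Ctsh and 1.40 for Ctsz (adjusted p = 0.0267 and 0.048), and -0.71 for Gla and -1.08 for Neu1 (adjusted p = 0.0281 and 0.00697).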

How the results depend on the processing

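With 2 arrays in 4 of the 6 groups, small changes could not be detected, and a count of 0 does not show that a gene did not change. In the results and alternatives run, no direction of a called gene was reversed. Numbers of called members follow. At TSA 24 h there were 21, with 14 to 22 under all settings other than leaving out arrays and the study's criteria, which gave 2. Leaving out 1 array gave 19 to 23. At BMP2 24 h there were 4, but 0 with only the groups compared, 0 by the study's criteria, 2 against the controls with a high Xist signal and 0 to 7 without 1 array (7 without control array 5 or 6). At TSA 6 h there were 7, but 12 with only the groups compared (all higher, against 27.8% of all genes higher), 3 by the study's criteria, and 5 to 6 without 1 array. For TSA minus BMP2 at 6 h there were 7, but 12 with only the groups compared (all higher, against 28.6% of all genes higher), and 5 to 6 without 1 array. For TSA minus BMP2 at 24 h there were 21, but 8 with the term for high Xist arrays (7 higher, against 7.21% of all genes higher), and 11 to 21 without 1 array. For the change of the TSA effect with time there were 4, but 2 with the deposited signals, without a filter, with a filter at 200 or with only the groups compared, and 0 to 5 without 1 array. For controls at 24 h minus 6 h there was 1, but 2 with median scaling, a pseudocount of 16, a filter at 200 or the Xist term, 0 without a filter or with only the groups compared, and 0 to 3 without 1 array. The cause was not tested.

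With the replicate number as a block, 22 members were called at TSA 24 h, 16 at BMP2 24 h, 15 at TSA 6 h, 17 for TSA minus BMP2 at 6 h, 8 for the change of the BMP2 effect and 12 for that of the TSA effect. At TSA 24 h, 22 were higher and 0 lower, against 24.8% of all genes higher with the block. At BMP2 24 h, 7 were higher and 9 lower, against 26% of all genes higher and 2074 of 10576 lower. At TSA 6 h, 14 of the 15 were higher and 1 lower, against 24.4% of all genes higher. For TSA minus BMP2 at 6 h, 16 were higher and 1 lower, against 25.7% higher. For the changes of the BMP2 and TSA effects, 3 and 8 were higher and 5 and 4 lower, against 11.6% and 14% of all genes higher. At 6 h each comparison had 2 pairs (r 0.564 to 0.705), and equal numbers of BMP2 arrays at 24 h did not deviate together (r -0.182 to 0.003), so that these arrays share only a number. Controls of 24 h minus 6 h could not be fitted with the block.

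Median scaling moved the median of all genes to -0.13 for TSA minus BMP2 at 24 h (35.6% of calls higher against 44.7%, members 14 higher and 3 lower), to -0.15 for the change of the TSA effect (25.7% against 43.8%, members 1 and 4) and to 0.15 for controls at 24 h minus 6 h (72.9% against 41.9%).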
